A study of Mus musculus with 7 samples.

Results

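The nuclear genes for the subunits and named assembly factors of the mitochondrial respiratory chain and ATP synthase were examined in accessible-chromatin peak lists from RAW264.7 cells, an established mouse macrophage-like line that RANKL turns into osteoclasts. Members were protein-coding genes of the mm10 gene set whose symbols begin with Nduf, Uqcr, Sdh or Atp5, or with Cox4, Cox5, Cox6, Cox7 or Cox8. The rule found 100 of 21883 nuclear protein-coding genes: 47 assigned here to complex I, 8 to complex II, 8 to complex III, 20 to complex IV and 17 to complex V. Ndufa4 and Ndufa4l2 were placed with complex IV, where the Ndufa4 protein is now known to reside. Symbols were matched as given, so subunits with other names, such as Cyc1, were not members.

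Chromatin was profiled by ATAC-seq, in which a transposase cuts and tags DNA that is free of nucleosomes, from 50000 cells per library with 100 bp paired-end reads. The 4 groups were untreated cells (2 libraries), RANKL at 50 ng/ml (2 libraries), RANKL at 50 ng/ml with the BET bromodomain inhibitor I-BET at 500 nM (2 libraries) and I-BET at 500 nM alone (1 library, numbered replicate 2). Treatments lasted 4 h. All groups came from the same cell line, whose tissue label is bone marrow. The labels do not say whether libraries of a group came from separate cultures, so any p-value measures the spread between these libraries, which may be technical.

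Complexes I, III and IV pass electrons from NADH to oxygen and pump protons, complex II feeds in electrons from succinate, and complex V uses the proton gradient to make ATP. Most subunits are encoded in the nucleus and needed by nearly all cells, whereas several complex IV subunits also have isoforms restricted to heart, skeletal muscle, lung or testis. Osteoclasts are rich in mitochondria, and promoters of respiratory genes are known targets of NRF1, ETS-family factors (NRF2, or GABP) and YY1.

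Promoters were printed for a few members on which the values below turn. Each is the 300 bases from 250 before to 50 after the RefSeq start on GRCm38.p6, written 5′ to 3′ along the gene, and capitals mark matches on either strand to NRF1 (GCGCANGCG), ETS (CCGGAAGT) or YY1 (AAGATGGCG). Sdha (chr13:74350191-74350490, minus strand), Uqcrc1 (chr9:108936398-108936697, plus strand) and Cox6a1 (chr5:115348909-115349208, minus strand) each held 3 NRF1 matches, some of them on opposite strands of the same bases. Uqcr11 (chr10:80406772-80407071, minus strand) held 1 NRF1 and 1 ETS match, Cox8a (chr19:7217567-7217866, minus strand) 2 ETS matches and Ndufs7 (chr10:80249199-80249498, plus strand) 1 YY1 match. Cox8b (chr7:140900397-140900696, minus strand), the heart and skeletal muscle counterpart of Cox8a, held none of the 3 motifs. Most member promoters held none either: any of the 3 was found in 35 of 87 (40.2%), beside 14.3% of all promoters. The other promoters printed here are therefore not typical of the members.
Sdha: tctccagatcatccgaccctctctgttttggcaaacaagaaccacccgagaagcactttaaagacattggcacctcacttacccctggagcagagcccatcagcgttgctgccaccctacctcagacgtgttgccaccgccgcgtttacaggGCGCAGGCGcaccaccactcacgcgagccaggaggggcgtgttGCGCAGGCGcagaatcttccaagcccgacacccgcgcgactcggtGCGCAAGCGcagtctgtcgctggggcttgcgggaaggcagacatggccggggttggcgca
Uqcrc1: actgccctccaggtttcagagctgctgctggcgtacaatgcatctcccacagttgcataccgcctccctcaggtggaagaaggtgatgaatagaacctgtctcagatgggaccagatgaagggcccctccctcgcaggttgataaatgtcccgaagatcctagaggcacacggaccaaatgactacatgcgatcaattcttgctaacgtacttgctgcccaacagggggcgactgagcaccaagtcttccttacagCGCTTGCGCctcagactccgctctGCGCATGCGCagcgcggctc
Cox6a1: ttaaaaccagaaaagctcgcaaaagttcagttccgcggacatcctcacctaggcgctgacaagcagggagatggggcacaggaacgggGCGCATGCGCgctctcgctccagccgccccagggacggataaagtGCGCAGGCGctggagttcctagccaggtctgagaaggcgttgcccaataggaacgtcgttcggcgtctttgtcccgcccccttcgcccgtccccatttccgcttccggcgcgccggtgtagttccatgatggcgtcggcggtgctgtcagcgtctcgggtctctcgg
Uqcr11: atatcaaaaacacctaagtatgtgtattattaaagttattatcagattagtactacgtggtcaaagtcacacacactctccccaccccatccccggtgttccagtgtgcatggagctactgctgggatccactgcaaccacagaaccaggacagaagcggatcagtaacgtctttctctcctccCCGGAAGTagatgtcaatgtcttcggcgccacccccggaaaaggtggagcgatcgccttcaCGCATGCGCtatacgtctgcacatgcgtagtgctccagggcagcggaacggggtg
Cox8a: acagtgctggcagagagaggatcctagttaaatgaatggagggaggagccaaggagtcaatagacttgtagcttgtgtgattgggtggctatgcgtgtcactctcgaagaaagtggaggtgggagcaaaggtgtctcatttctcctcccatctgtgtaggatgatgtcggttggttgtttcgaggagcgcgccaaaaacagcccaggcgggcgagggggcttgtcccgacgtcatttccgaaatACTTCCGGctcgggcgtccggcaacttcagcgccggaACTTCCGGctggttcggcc
Ndufs7: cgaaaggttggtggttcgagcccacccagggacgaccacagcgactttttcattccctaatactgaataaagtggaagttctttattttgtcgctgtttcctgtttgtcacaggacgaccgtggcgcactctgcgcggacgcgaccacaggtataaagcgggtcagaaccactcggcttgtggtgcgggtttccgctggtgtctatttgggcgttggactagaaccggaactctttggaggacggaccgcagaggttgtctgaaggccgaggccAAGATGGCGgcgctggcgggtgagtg
Cox8b: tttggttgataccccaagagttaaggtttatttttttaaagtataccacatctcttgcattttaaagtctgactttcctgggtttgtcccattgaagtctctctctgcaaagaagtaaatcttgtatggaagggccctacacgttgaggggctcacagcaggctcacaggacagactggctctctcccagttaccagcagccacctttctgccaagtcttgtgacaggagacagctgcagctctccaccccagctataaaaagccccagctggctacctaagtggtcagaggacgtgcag

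A start was listed for 82 of the 100 members, with 87 promoters in all. NRF1 matched 25 of these 87 promoters (28.7%) beside 8.58% of all 21262 promoters of the same length. YY1 matched 8 (9.2% beside 1.83%) and the ERR motif TCAAGGTCA matched 2 (2.3% beside 0.334%). For the ETS motif the shares were 5.75% and 5.15%, for Sp (GGGCGG) 46.0% and 46.2%, and for the E-box CACGTG, which Myc can bind, 8.05% and 7.84%. The AP-1 motif TGANTCA, bound by Fos and Jun factors, matched 8.05% of member promoters and 6.99% of all. CRE (TGACGTCA) matched 4.6% beside 2.23%, and the TATA box TATAAA 11.5% beside 12.6%. None of the 4 tissue-restricted isoforms with a listed start held NRF1, ETS or YY1, and 2 of these 4 held TATAAA. At least 1 of NRF1, ETS and YY1 was found in 40.2% of member promoters and 14.3% of all. With only 4 promoters, the isoforms cannot be told apart from either share. Mitochondrial ribosomal protein promoters, another nuclear set for this organelle, held NRF1 in 21.3% and YY1 in 10.7%. Member promoters had a median of 20 CpG pairs beside 13 in all promoters, and a median GC content of 58.7% beside 56.3%. NRF1 holds CpG pairs, and the part of base composition in these shares was not tested. Every motif was searched on both strands, no match of one motif overlapped a match of another in member promoters, and a match describes letters only.

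Nearly all of these genes were open in every condition. A gene was called open in a library when at least 1 peak had its midpoint within 5 kb of the gene body. By that measure 96 of the 100 members were open in all 7 libraries, beside 71.1% of all protein-coding genes. Counts were 98 and 97 in untreated cells, 98 and 100 with RANKL, 96 and 99 with RANKL and I-BET, and 98 with I-BET alone. Each of the 7 counts was above the share of all genes in the same library, which lay between 76.0% and 79.9%. The median gene length was 7336.5 bp for members and 17170 bp for all genes, so the median window around a member was the shorter one.

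Most were also open at the promoter itself. A promoter peak here is one that overlaps the 300 promoter bases described above by at least 1 bp. Of the 82 members with a listed start, 78 had a promoter peak in all 7 libraries, beside 50.6% of all genes with a listed start. The 4 others were Cox7b2, Cox8b and Ndufb4b, with no promoter peak in any library, and Cox6b2, with one in 1 library. Mitochondrial ribosomal protein genes were open within 5 kb in 78 of 78 cases and cytoplasmic ribosomal protein genes in 81 of 82. With a listed start, 69 of 69 and 59 of 62 of them had a promoter peak in all 7 libraries. Of 42 other respiratory chain genes outside the symbol rule, all were open within 5 kb in the 7 libraries. They include the electron carrier Cycs, the subunit Cyc1, assembly factors such as Surf1 and Bcs1l, and the carriers Slc25a3 to Slc25a5. Of those with a listed start, 37 of 37 had a promoter peak throughout. Gene percentiles of the 42 had a median of 78.2. They ran from 44.3 at Atpaf1, an assembly factor of the ATP synthase, to 99.9 at Etfdh, which passes electrons to ubiquinone.

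The 4 members that were not open throughout were 2 short copies of a subunit gene and 2 testis isoforms. Ndufb4b, a copy of the complex I subunit gene Ndufb4 (chr19:25033108-25033578), had a peak in both RANKL libraries only, each of 150 bp with a −log10 p of 2.45 and 2.9. Ndufb4c, another copy (chr15:73809449-73809933), had a peak in the 4 libraries numbered replicate 2 and in none of the 3 numbered replicate 1. Cox8c had a peak in 1 untreated, 1 RANKL, 1 RANKL with I-BET and the I-BET library. Cox7b2 had one in 1 untreated, both RANKL and 1 RANKL with I-BET library. Their widths lay between 150 and 535 bp, and Cox8c had a peak in 1 of the 2 libraries in each group of 2. When only peaks with a −log10 q of at least 5 were kept, Ndufb4b was open in no library and 94 members were open in all 7. Cox8b then fell to 5 libraries and Cox6b2 to 6.

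Peak strength was compared through ranks, because the −log10 p-values of the peak caller grow with depth. Each gene took its strongest peak, the one with the largest −log10 p, and its gene percentile is the place of that peak among all 21883 genes in the same library, with genes lacking a peak tied at the bottom. The median member stood at 71.7 and 65.9 in the untreated libraries, 69.7 and 65.6 with RANKL, 71.9 and 64.2 with RANKL and I-BET, and 64.7 with I-BET alone. Members lay above the middle of the genome in each library, and 83 of 100 had a mean percentile above 50, beside 11224 of all 21883 genes. The trait was not particular to them. Above 50 were also 73 of 78 mitochondrial and 77 of 82 cytoplasmic ribosomal protein genes, and 39 of the 42 other respiratory chain genes. Between 10 and 15 members fell in the top 10% of genes in a library, a share of 10% to 15% and so close to the 10% of all genes. Members were thus mostly of middling to high rank, with few at the very top.

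**Figure D1:**
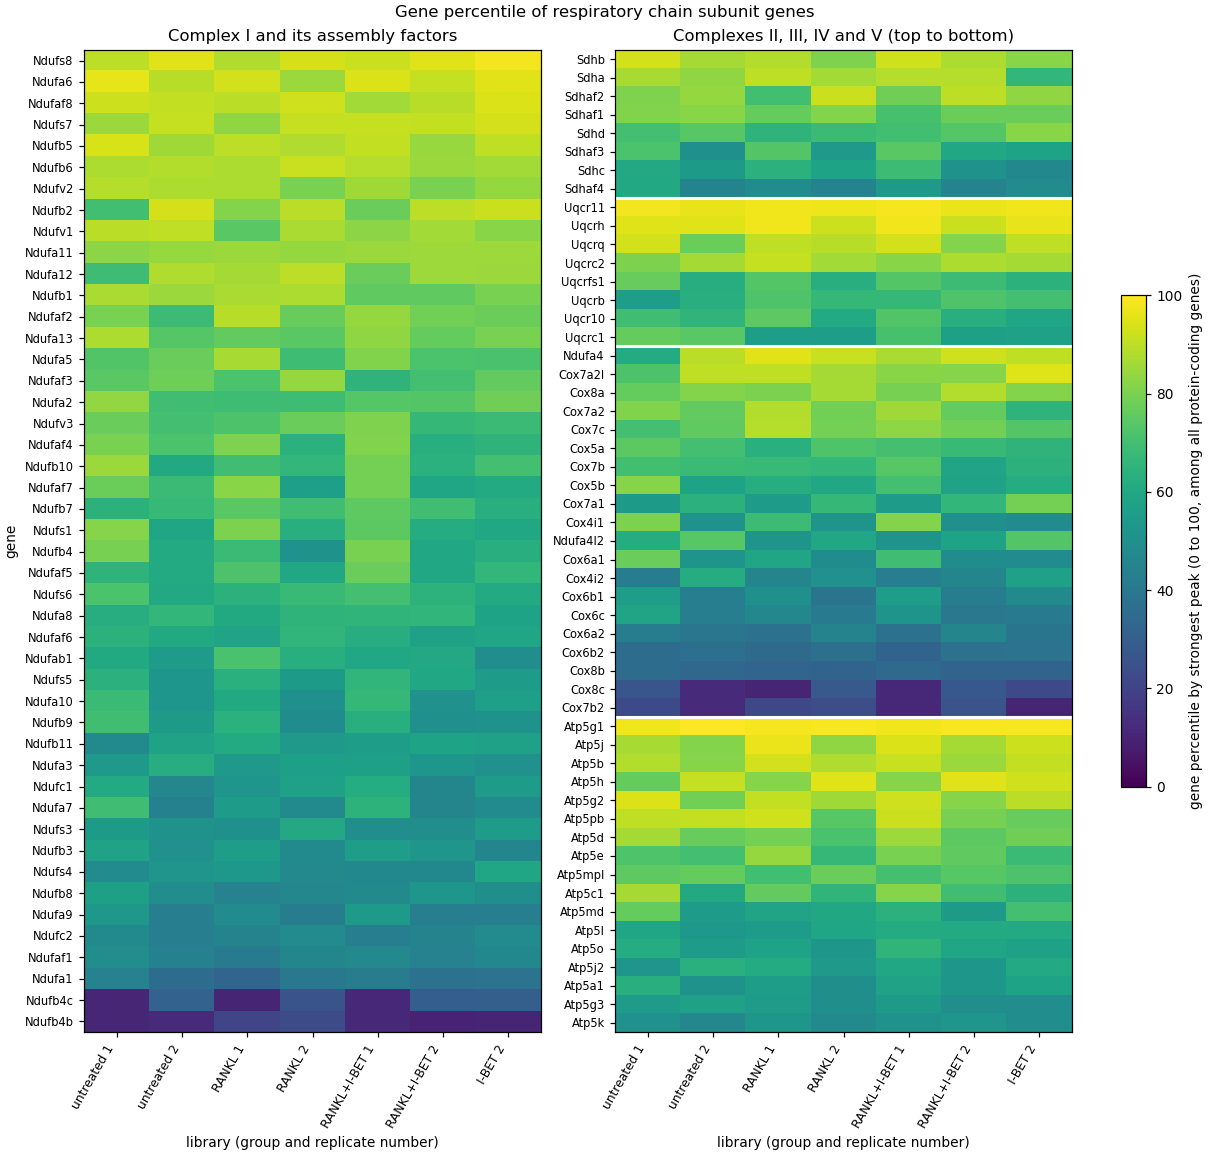
Gene percentile (colour, 0 to 100) of the members in the 7 libraries (1 row is left out), complex I with its assembly factors on the left and complexes II to V, separated by white lines, on the right. Atp5g1 stays between 97.9 and 99.7, whereas Cox4i1 runs from 48.1 to 81.5 and is higher in the replicate 1 libraries; the lowest values of Cox7b2 (10.4 to 25.4) are libraries with no peak.

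Among complexes, the median of the members' mean percentiles was 68.7 for complex I, 74.9 for complex II, 77.2 for complex III, 61.5 for complex IV and 73.6 for complex V. By role it was 78.9 for the 19 core subunits, 66.6 for the 58 accessory subunits, 70.6 for the 12 assembly factors and 38.4 for the 8 tissue-restricted isoforms. These medians include strongest peaks that held a neighbour's start and not the gene's own. Uqcr11, in complex III, entered at 97.8 and stood at 63.1 by its own promoter peak. Medians by complex or role were not computed by promoter peaks. Core subunits of complex I, which carry electrons from NADH towards ubiquinone, ranged widely. Ndufs8 stood at 93.2 ± 3.4 (SD, n = 7 libraries over all groups), Ndufs7 at 89.5 ± 3.7, Ndufv2 at 84.8 ± 3.7 and Ndufv1 at 84.6 ± 5.5. Ndufs1 stood at 68.7 ± 10.0 and Ndufs3 at 52.8 ± 4.1. The 4 subunits of complex II, succinate dehydrogenase, ran from Sdhb, the iron-sulfur protein (87.3 ± 4.7), through Sdha, the flavoprotein (84.4 ± 8.4), and Sdhd (71.8 ± 5.5) to Sdhc (57.7 ± 7.6), the last pair being membrane anchors. In 6 of the 7 libraries the Sdha value came from a peak over the start of Pdcd6, and by promoter peaks Sdha stood at 73.8 ± 5.1, below Sdhd at 77.3 ± 5.1. The strongest peak held the gene's own start in 3 of 7 libraries for Ndufs7, Ndufv2 and Sdhb. By promoter peaks these stood at 86.0 ± 4.8, 84.5 ± 3.4 and 86.9 ± 5.7. Promoter values rank among the 17491 genes with a listed start, whereas gene percentiles rank among all 21883 genes. Sdhd and Ndufs8, whose strongest peaks held their own starts in all 7 libraries, stood at 77.3 and 94.4 by promoter peaks. Their gene percentiles were lower, at 71.8 and 93.2. Values on these scales are thus not directly comparable. In complex III, Uqcrc2 stood at 85.8 ± 3.6, the Rieske protein gene Uqcrfs1 at 68.7 ± 5.8 and Uqcrc1 at 63.9 ± 9.6. The catalytic beta subunit of the ATP synthase, Atp5b, stood at 88.5 ± 3.9, Atp5d (delta) at 78.9 ± 5.5, Atp5e (epsilon) at 73.8 ± 6.4, Atp5c1 (gamma) at 72.0 ± 9.7 and Atp5a1 (alpha) at 55.4 ± 4.6. For complex IV, Cox5a stood at 69.1 ± 3.9 and Cox5b at 64.5 ± 8.7.

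At the top of the order stood Atp5g1, one of 3 genes for the c subunit that forms the rotating ring of the ATP synthase. It had 97.9 and 99.7 in untreated cells, 98.6 and 99.2 with RANKL, 98.0 and 98.9 with RANKL and I-BET, and 98.9 with I-BET. The groups overlapped, and the peak covered the start of Atp5g1 in every library. Of the other genes for the same c subunit, Atp5g2 stood at 87.7 ± 5.9 and Atp5g3 at 52.9 ± 3.4 (SD, n = 7). Uqcrh, the hinge protein of complex III, stood at 95.3 ± 2.5, with the start of Lrrc41 in the same peak. Uqcr11, a small complex III subunit, stood at 97.8 ± 0.6, but its strongest peak held the start of Mbd3 in all 7 libraries and never its own. By its own promoter peak, ranked among the 17491 genes with a listed start, Uqcr11 stood at 63.1 ± 5.3. Ndufa6, a complex I subunit, likewise took its 92.2 ± 4.0 from the start of Smdt1, and stood at 89.5 ± 3.1 by its own promoter peak. The lowest members open in all 7 libraries were Cox8b (33.2 ± 1.3), Cox6b2 (36.0 ± 2.0), Ndufa1 (38.5 ± 4.1), Cox6a2 (40.8 ± 3.4) and Ndufaf1 (45.5 ± 2.6). Ndufa1, an X-linked complex I subunit, and Ndufaf1, a complex I assembly factor, had a peak over their own start in all 7 libraries.

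Tissue-restricted isoforms of complex IV mostly ranked below the general form. Cox8a, the general form, had 76.2 and 81.3 in untreated cells, 80.4 and 86.4 with RANKL, 79.5 and 88.3 with RANKL and I-BET, and 81.3 with I-BET. Cox8b had 35.4 and 33.6, 32.5 and 32.3, 34.3 and 32.3, and 32.0 in the same order. These sets of values did not overlap, and the strongest Cox8b peak lay off its start. Cox7b (66.9 ± 4.8) and its testis isoform Cox7b2 (18.1 ± 6.5) were also apart in every library, as were Cox6a1 (57.6 ± 11.6) and the heart and muscle form Cox6a2 (40.8 ± 3.4). The strongest peak of Cox7b never held its own start. By promoter peaks Cox7b stood at 53.4 ± 2.4, while Cox7b2 had no promoter peak in any library. The ranges over libraries overlapped for Cox4i1 (48.1 to 81.5) and Cox4i2 (41.9 to 61.9), the latter a lung and hypoxia isoform. Ndufa4 ranged from 61.6 to 95.5 and its hypoxia-induced relative Ndufa4l2 from 51.6 to 74.2. Cox4i1, Cox4i2, Cox6a2 and Ndufa4l2 had no listed start, so whether their strongest peaks lay at their own starts cannot be told. Cox7a2 ranged from 65.2 to 88.3 and Cox7a1, the heart and muscle form, from 54.3 to 79.1. Cox7a1 had a peak over its start in all 7 libraries, unlike Cox7b2, Cox8b and Cox6b2. Cox6b1 ranged from 38.3 to 55.7 and its testis form Cox6b2 from 32.4 to 38.0, so the highest Cox6b2 value fell just short of the lowest of Cox6b1.

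**Figure D2:**
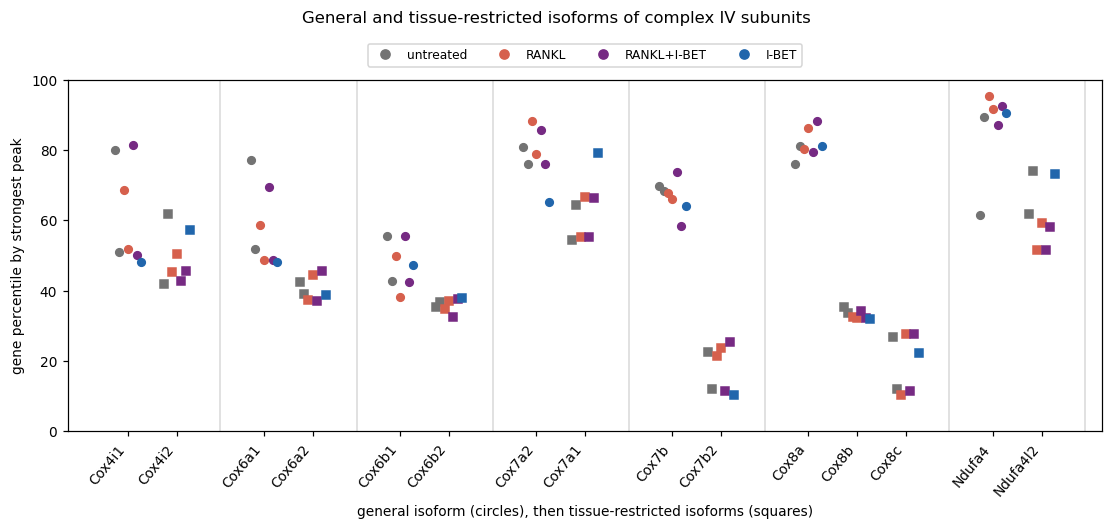
Gene percentile by strongest peak (vertical axis, 0 to 100) for general complex IV subunits (circles) and their tissue-restricted isoforms (squares), 1 point per library, coloured by treatment. Cox8a lies between 76.2 and 88.3 and Cox8b between 32.0 and 35.4, whereas the values of Cox4i1 and Cox4i2 overlap.

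Strongest peaks of the members sat at gene starts more often than those of genes at large. In each library, 75.6% to 85.2% of the members with a start and a peak had their own start inside the strongest peak, beside 49.8% to 54.9% of all genes. The summit lay within 200 bp of the start for 68.3% to 79.0% of members and 38.1% to 46.9% of all genes. Members are the shorter genes (median 7336.5 bp beside 17170 bp), and the part of gene length in these shares was not tested. The shares were not computed for the ribosomal protein genes. Of the 82 members, 58 had their own start in the strongest peak of every library with a peak, 16 in some libraries and 8 in none. The 8 were Ndufa6, Ndufb6, Ndufb4b, Uqcr11, Cox7b, Cox6b2, Cox8b and Cox7b2.

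**Figure D3:**
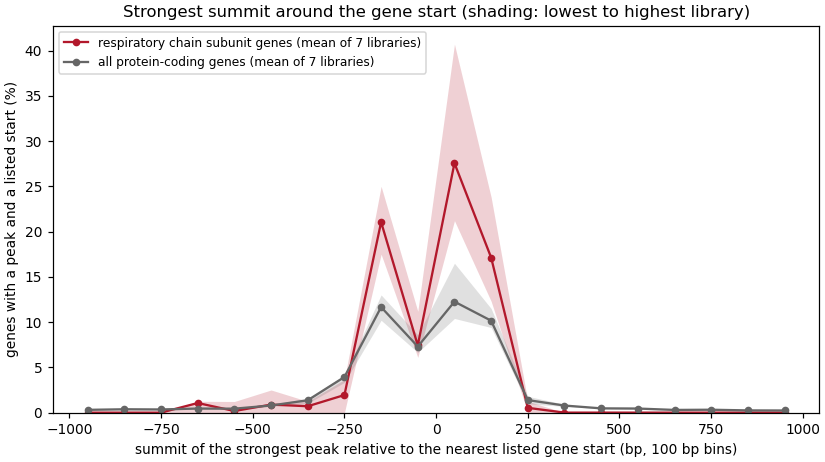
Share of genes (vertical axis, %) by the position of the strongest peak's summit relative to the nearest listed start (horizontal axis, 100 bp bins), as the mean of 7 libraries for members (red) and all protein-coding genes (grey), with shading from the lowest to the highest library. Both sets have a maximum on either side of the start, and the members' maxima are higher; 68.3% to 79.0% of their summits lie within 200 bp of the start.

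Many of these starts were shared with a neighbour transcribed the other way. A start on the opposite strand lay within 1000 bp for 24 of the 82 members (29.3%), beside 13.2% of all genes, 37.7% of mitochondrial ribosomal protein genes and 19.4% of cytoplasmic ones. Ndufa7 lay 10 bp from Rps28, Ndufs3 19 bp from Kbtbd4, Sdhd 52 bp from Timm8b, Sdha 77 bp from Ccdc127 and Ndufb5 308 bp from Mrpl47. Atp5j, the coupling factor of the ATP synthase, lay 148 bp from Gabpa, which encodes the DNA-binding subunit of the ETS factor GABP. For 23 members the strongest peak held the start of another protein-coding gene in every library. The share of all genes for which this holds was not computed, so the count is not set against them. Among the 23, that peak never held the member's own start for Ndufa6, Ndufb6 and Uqcr11, and did so in 1 library for Ndufb10. A peak that holds both starts cannot be assigned to one gene.

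Among the 3 groups with 2 libraries, differences in the members' median percentile were smaller than the SD between libraries of either group compared. With RANKL the mean of the median gene percentile was 67.7 ± 2.96 (SD, n = 2) and in untreated cells 68.8 ± 4.07 (SD, n = 2), a difference of -1.12 percentile points. Leaving out 1 library turned it: without untreated replicate 1 it was 1.76, and without untreated replicate 2 it was -4. Dropping RANKL replicate 1 gave -3.21, and dropping RANKL replicate 2 gave 0.967. With RANKL and I-BET it was 68.1 ± 5.43 (SD, n = 2), which is 0.417 points above RANKL alone and -0.706 relative to untreated cells. Against RANKL the difference ran from -3.42 without RANKL with I-BET replicate 1 to 4.26 without its replicate 2, and was -1.67 and 2.51 without RANKL replicate 2 and 1. Against untreated it ran from -4.55 to 3.13 without the same RANKL with I-BET libraries, and was 2.17 and -3.58 without untreated replicate 1 and 2. Single libraries thus set the sign of all 3 differences. The single I-BET library stood at 64.7, which is -4.11 relative to the untreated mean, beside an untreated SD of 4.07. That library lies among the replicate 2 libraries of the other groups. The share of open members was 97.5% ± 0.707 in untreated cells, 99% ± 1.41 with RANKL, 97.5% ± 2.12 with RANKL and I-BET (SD, n = 2 each) and 98% with I-BET. The untreated and RANKL libraries met at 98%. With 2 libraries against 2, no exact permutation test can pass 0.05, and these medians were not tested.

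Library medians of the members separated by replicate number. The 3 libraries numbered replicate 1 had member medians of 69.7 to 71.9 and the 4 numbered replicate 2 had 64.2 to 65.9, without overlap. Within replicate 1, RANKL differed from untreated by -1.91 points and RANKL with I-BET from RANKL by 2.17. Within replicate 2 the same differences were -0.335 and -1.33, and I-BET differed from untreated by -1.23. Of the 96 members open throughout, 26 (27.1%) had all replicate 1 libraries above all replicate 2 libraries and 10 (10.4%) the reverse, beside 18% and 16.6% of all genes open throughout. Cytoplasmic ribosomal protein genes were split likewise (72.5 to 79.3 and 66.4 to 70.3), as were mitochondrial ones (65.7 to 67.9 and 63.6 to 65.2), while the values of the other respiratory chain genes overlapped (75.3 to 80.0 and 75.4 to 80.0). The tissue-restricted isoforms leaned the other way, with overlap (35.7 to 38.7 and 38.0 to 41.6). Cox4i1, picked after its values were seen, stood at 80.1, 68.6 and 81.5 in the replicate 1 libraries and at 50.9, 51.9, 50.3 and 48.1 in the others. The labels do not say what the number marks, and its part in the treatment values was not tested.

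Widths of the strongest peaks followed the library as a whole. The median member peak measured 1061.5 and 1450 bp in untreated cells, 1354 and 1492.5 bp with RANKL, 1405 and 1717 bp with RANKL and I-BET, and 1195 bp with I-BET. Group means were 1260 ± 275, 1420 ± 97.9 and 1560 ± 221 bp (SD, n = 2 each) for the first 3 groups. Differences were 168 bp for RANKL against untreated, 138 bp for RANKL with I-BET against RANKL, and 305 bp for RANKL with I-BET against untreated. Libraries of the compared groups overlapped in each case. Within replicate numbers 1 and 2 the differences were 292 and 42.5 bp, 51 and 224 bp, and 344 and 267 bp in that order, all above 0. The I-BET library was -255 bp relative to untreated replicate 2. Without untreated replicate 1 the first difference was -26.8 bp, and without untreated replicate 2 it was 362 bp. The second was -18.2 bp without RANKL with I-BET replicate 2, 294 bp without its replicate 1, and 68.5 and 207 bp without RANKL replicate 1 and 2. The third was 111 and 500 bp without untreated replicate 1 and 2, and 461 and 149 bp without RANKL with I-BET replicate 1 and 2. The first was 98.2 bp without RANKL replicate 2. All genes showed the same order, from 1017 bp in untreated replicate 1 to 1620 bp in RANKL with I-BET replicate 2. The widths of all peaks in those libraries had medians of 284 and 489 bp. Atp5d had the widest strongest peak, at 6916 bp on average, followed by Uqcrh (3913 bp), Ndufs8 (3424 bp), Ndufa4l2 (3375 bp) and Ndufaf3 (3205 bp). In all libraries but the I-BET one, the Atp5d peak held the start of the neighbour Midn. The promoter peak of Atp5d measured 1550 to 2502 bp, except in RANKL with I-BET replicate 2, where a peak of 13008 bp held both starts. Among members open in all 7 libraries the narrowest belonged to Cox6a2 (478 bp), Cox6b2 (481 bp), Cox8b (592 bp), Ndufaf1 (755 bp) and Ndufa9 (758 bp), so 3 of these 5 were tissue-restricted isoforms.

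**Figure D4:**
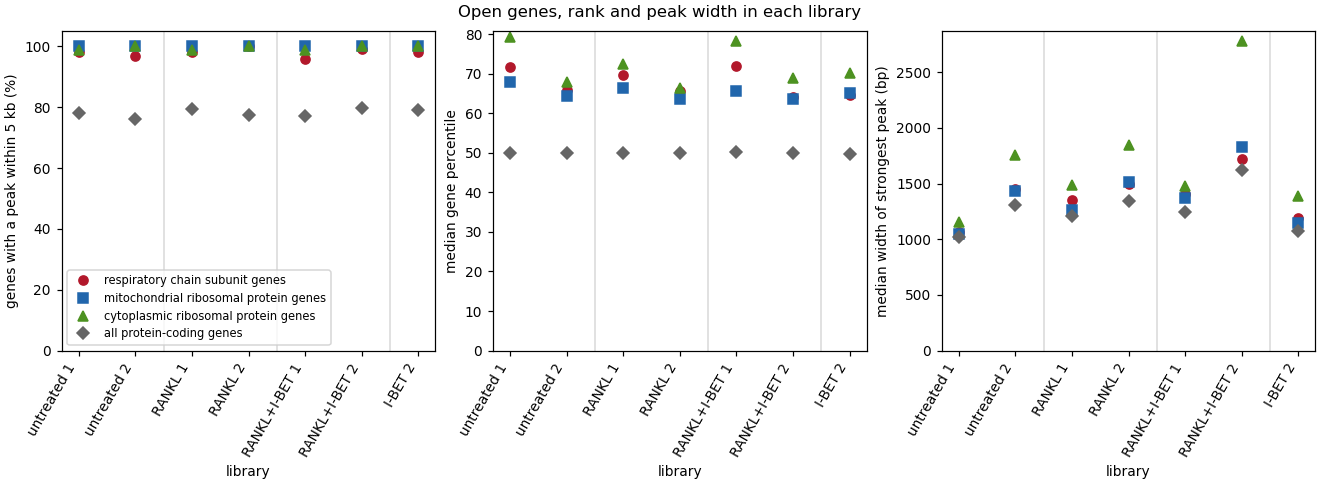
Share of genes with a peak within 5 kb (left, %), median gene percentile (middle) and median width of the strongest peak (right, bp) in each of the 7 libraries, for members (red circles), mitochondrial (blue squares) and cytoplasmic (green triangles) ribosomal protein genes and all protein-coding genes (grey diamonds); grey lines separate the treatments. Members have 96% to 100% of genes open, and their width rises and falls with that of all genes.

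Each gene open in all 7 libraries was then fitted by limma over the 7 libraries, on gene rank and on peak width, both turned into normal scores (ranks mapped to a standard normal scale). Of the 100 members, 96 could enter. No member passed an adjusted p of 0.05 in any of the 4 comparisons by rank or by width, nor in the difference between the I-BET effect with and without RANKL. Over all 15568 genes the calls were 0% for RANKL against untreated and for each width comparison. They were 0.00642% for RANKL with I-BET against RANKL, for RANKL with I-BET against untreated and for I-BET against untreated by rank. These were 1 gene each, always Dnajc6, a clathrin-uncoating co-chaperone gene that is no member. It ranked lower with I-BET and is named because it was the only call. Without either RANKL library or either RANKL with I-BET library 0 genes were called in any comparison, and without either untreated library 1 gene was called, for RANKL with I-BET against RANKL only. At an unadjusted p under 0.05, 1 of 96 members (1.04%) passed in each rank comparison, beside 1.86%, 0.289%, 1.1% and 2.63% of all genes. By width 0, 0, 0 and 4 members passed, beside 2.65%, 2.07%, 2.36% and 4.66% of all genes. For the difference between I-BET effects it was 2 members each by rank and by width (2.08%, beside 1.57% and 3.8%). Members were above 0 in 43, 50, 45 and 42 of 96 cases by rank (44.8%, 52.1%, 46.9% and 43.8%), beside 46.8%, 51.5%, 46.9% and 49.8% of all genes. No other respiratory chain gene of the 42 was called either. The comparisons share libraries, and the I-BET group, with 1 library, was taken to vary as the others do.

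Since none was called, the members with the smallest p are given as values. For RANKL against untreated by rank, this was Uqcrc1, a core protein of complex III (chr9:108936648-108949641). Its percentile was 76.4 and 74.6 in untreated cells, 55.8 and 55.7 with RANKL, 71.0 and 56.7 with RANKL and I-BET, and 57.2 with I-BET. Both untreated libraries lay above the 5 others. The difference was -0.71 on the normal score scale (SE 0.23, limma unadjusted p = 0.0207, adjusted p = 1). The peak held the gene's own start in every library, and by promoter peaks the values were 79.4 and 80.5 untreated and 64.0 and 64.6 with RANKL. Next came Ndufa4, with 61.6 and 89.5 untreated and 95.5 and 91.7 with RANKL, where untreated replicate 1 alone was low. Cox7c, a complex IV subunit, followed with 70.0 and 75.7 untreated and 89.0 and 79.2 with RANKL.

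For RANKL with I-BET, the smallest p by rank belonged to Ndufb1, a complex I membrane-arm subunit (chr12:101968096-101975738). Its percentile was 87.2 and 85.0 untreated, 87.4 and 87.5 with RANKL, 75.4 and 75.4 with RANKL and I-BET, and 79.9 with I-BET. The 3 libraries with I-BET lay below the 4 without it. The difference from RANKL was -0.53 (SE 0.18, limma adjusted p = 1) and from untreated -0.46 (SE 0.18, limma adjusted p = 1). Its peak also held the start of Cpsf2, 236 bp away. Ndufaf3, a complex I assembly factor, had 71.7 and 84.0 with RANKL and 65.0 and 70.0 with I-BET added. Ndufa4l2 had 61.8 and 74.2 untreated and 51.6 and 58.1 with RANKL and I-BET.

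For I-BET alone the smallest p by rank was that of Sdha (chr13:74322255-74350240). It had 87.0 and 83.3 untreated, 90.4 and 86.0 with RANKL, 88.8 and 89.0 with RANKL and I-BET, and 66.2 with I-BET, a difference of -0.75 from untreated (SE 0.24, limma adjusted p = 0.995). The strongest peak held the start of Pdcd6, the gene beyond the 3′ end of Sdha, in the 6 other libraries and the start of Sdha in the I-BET library. By its promoter peak Sdha stood at 79.1 and 71.0 untreated, 78.2 and 66.5 with RANKL, 78.7 and 69.4 with RANKL and I-BET, and 73.8 with I-BET. In these promoter values the I-BET library lay within the range of each other group. Uqcrc1 came next, with the 57.2 given above, and then Cox7a1, with 54.3 and 64.4 untreated and 79.1 with I-BET.

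By width, the smallest p of any member was that of Atp5d, the delta subunit of the ATP synthase (chr10:80138698-80145828), for I-BET against untreated. The strongest peak measured 5911 and 8171 bp untreated, 5956 and 7046 bp with RANKL, 6309 and 13008 bp with RANKL and I-BET, and 2014 bp with I-BET. The difference was -2.06 on the normal score scale (SE 0.3, limma unadjusted p = 0.000349, adjusted p = 0.676). The I-BET library was the narrowest, and its strongest peak lay over the Atp5d start. In the 6 other libraries that peak held the start of the neighbour Midn, and only the 13008 bp peak held both starts. The promoter peak of Atp5d measured 1550 and 1921 bp untreated and 2014 bp with I-BET. Cox6c, a complex IV subunit, measured 858 and 1121 bp untreated and 283 bp with I-BET, and Ndufaf3 2794 and 1775 bp and 834 bp. For Ndufaf3 the 1775 and 834 bp peaks held the start of the neighbour Dalrd3 and not its own, and the promoter peak measured 2794 and 3192 bp untreated and 2714 bp with I-BET. For RANKL against untreated the first by width was Ndufs4, a complex I subunit, with 857 and 1153 bp untreated and 1634 and 1500 bp with RANKL. Ndufb9 had 948 and 1756 bp against 2165 and 1880 bp, and Uqcr11, at the Mbd3 start, 2191 and 2838 bp against 1986 and 2237 bp. For RANKL with I-BET against RANKL the first were Atp5k, Sdhaf2 and Cox4i2. Atp5k, the e subunit of the ATP synthase, had 1092 and 810 bp with RANKL and 1435 and 1652 bp with I-BET added. Sdhaf2, an assembly factor of complex II, had 1010 and 2032 bp and then 1725 and 4234 bp. Only the 1725 bp peak held its start, and its promoter peaks measured 1410 and 1401 bp and then 1725 and 1721 bp. Cox4i2 had 1376 and 1703 bp and then 740 and 1615 bp. Against untreated cells, RANKL with I-BET had Ndufv2 at 1910 and 1717 bp (1680 and 2416 bp untreated), of which only the 1717 bp peak held its start; the others held the start of Ankrd12. The promoter peak of Ndufv2 measured 1405 and 1717 bp with RANKL and I-BET and 1343 and 1461 bp untreated. The next were Cox4i2 at 740 and 1615 bp (971 and 1878 bp untreated) and Atp5g1 at 2135 and 2331 bp (1073 and 1762 bp untreated).

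**Figure D5:**
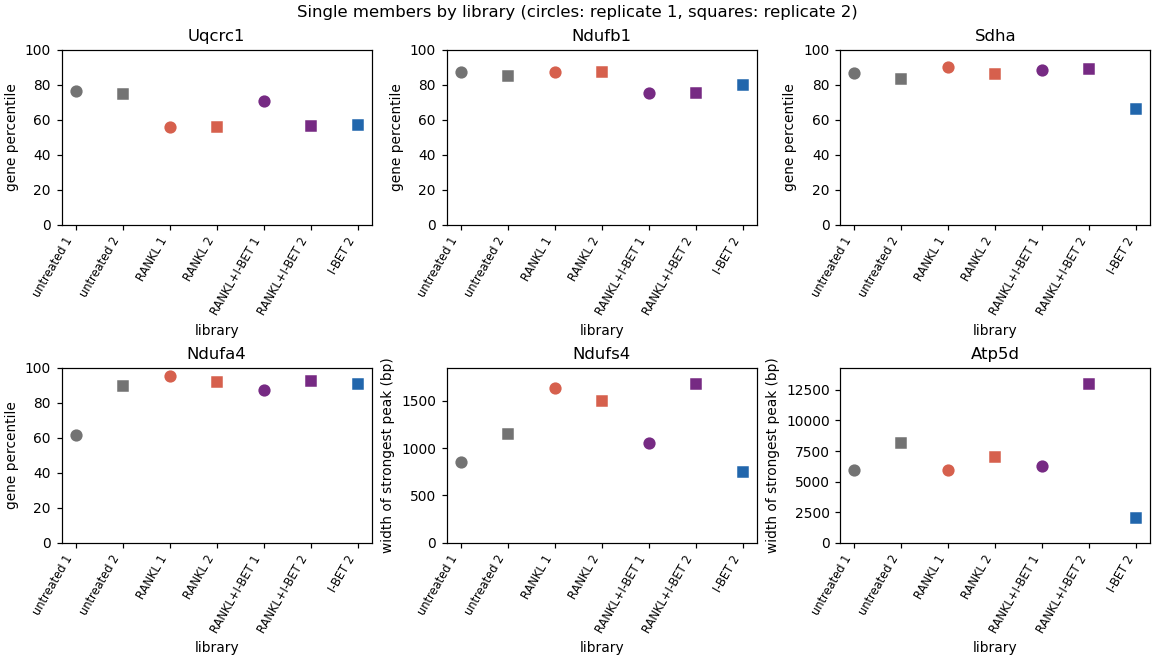
Values in each of the 7 libraries (circles for replicate 1, squares for replicate 2) of 6 members that were among the 3 with the smallest p in a comparison. They are shown as gene percentile (Uqcrc1, Ndufb1, Sdha, Ndufa4) or width of the strongest peak in bp (Ndufs4, Atp5d). For RANKL against untreated, the unadjusted limma p was not under 0.05 for Ndufa4 by rank or Ndufs4 by width. None passed the adjusted threshold; Sdha is at 83.3 or above in 6 libraries and at 66.2 in the I-BET library, where another peak was the strongest.

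The lists held 117175 to 166369 peaks, with a median −log10 p of 4.66 to 15.62, and 25.3% to 74.0% of peaks reached a −log10 q of 5. Read depth is unknown. All 10 macrophage markers were open in every library, with a median percentile between 55.1 and 78.7. Of the markers of other cells, 4 of 5 for B lymphocytes, 4 of 5 for T lymphocytes, 4 of 5 for fibroblasts and osteoblasts and 3 of 5 for erythroid cells and granulocytes were also open throughout, so a peak within 5 kb did not by itself separate cell types. Medians over libraries for these lists ran from 26.7 to 61.6. The 61.6 was that of the T lymphocyte markers in untreated replicate 1, where the macrophage markers stood at 55.1. Of the erythroid and granulocyte markers, the globin gene Hbb-bs had no peak and Gata1 had one in 3 libraries. Klf1 (mean percentile 77.8), Elane (49.0) and Mpo (32.8) were open in all 7.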

How the data were processed

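Per the submitters' processing notes, reads were handled with MACS2, Bowtie2, cutadapt, SAMtools, Picard, FastQC and bedtools and the build was mm10; versions and settings are not given in the sources used here. A separate list of peaks was deposited for each library, so no pooling preceded peak calling. Beside the positions, the authors' columns are a score, a fold (ratio) over background, a −log10 p and a −log10 q. In 100% of the 975394 deposited peaks the score was 10 times −log10 p without its decimals. The authors' values served only to rank, describe or filter peaks within a list.

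Gene bodies and promoters came from RefSeq tables for GRCm38.p6, the assembly behind mm10; 18 members, among them 2 on chromosome 18, had no start in the table and enter no value at starts. Peaks were assigned with Python 3.11.15 by midpoint within 5 kb of the gene body, and promoter peaks overlapped the 300 promoter bases by at least 1 bp. Fold and −log10 p ordered the peaks of each list identically (rank correlation 1), with 208 to 1401 distinct values a list, so ties were common. limma 3.58.1 in R 4.3.3 was fitted to normal scores of 15568 genes with a peak in all 7 libraries, with 4 groups sharing 1 spread and Benjamini-Hochberg adjustment over all genes. The script was tested on simulated data. Alternatives were a 1 kb window, a minimum −log10 q of 5, peak lists cut to equal length, ranking by fold, promoter peaks only, 50% of the peak in the window, summed widths, genes with a peak in at least 1 library, a replicate block and leaving out each library.

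Named members were the 3 with the smallest limma p in each comparison, those open in fewer than 7 libraries, the 5 at each end by percentile and by width, the isoform pairs and the core subunits; 1 of these is not reported here. Cox4i1's gap between replicate numbers, the gene Dnajc6 and the test of the difference between I-BET effects were chosen after values were seen. Members and lists were chosen with earlier results of these data known.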

Additional observations from a re-analysis of the deposited data

How the results depend on the processing

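The count of members passing limma stayed at 0 in 102 alternatives over the 8 comparisons, among them the fits without each library and the fit with the replicate block. Members open in all 7 libraries numbered 93 with the 1 kb window, 94 with a minimum −log10 q of 5 and 96 with each library left out. Ranking by fold is among these and cannot change a value, since fold and −log10 p order the peaks identically. Of 87 alternatives for the differences between groups, 79 moved by less than 1 SD between replicates, but that SD is larger than most of the differences. Leaving out 1 library changed the sign of all 3 differences in median percentile (-4 to 1.76, -3.42 to 4.26 and -4.55 to 3.13 points) and of 2 in median width (-26.8 to 362, -18.2 to 294 and 111 to 500 bp). Summing the width of all peaks of a gene gave 568 bp for RANKL against untreated, 374 bp for RANKL with I-BET against RANKL and 941 bp for RANKL with I-BET against untreated. The share of open members differed between RANKL and untreated by -1 point with the 1 kb window and by 0 by promoter peaks. Between RANKL with I-BET and RANKL it differed by 1.5 points at a −log10 q of at least 5 and by 0.61 by promoter peaks, and against untreated by 2 points at that q; the cause was not tested. Libraries of equal number deviated together (correlations of 0.53, 0.72 and 0.65 across genes), but the labels do not say that they are paired; with the replicate block 0 members passed, and the genes called by rank over the whole set became 2, 4, 1 and 2 in place of 0, 1, 1 and 1. Admitting genes with a peak in at least 1 library gave 0, 2, 1 and 0. No gene was called by rank with a 1 kb window, promoter peaks only or at the minimum q. Ranks hide changes common to all genes, and 1 I-BET library gives no spread of its own.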

Other observations

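Some members carried several peaks within 5 kb. Ndufs7 had 6 to 13 and Ndufaf2, a complex I assembly factor with a long gene, 9 to 13, whereas Cox7c and Ndufs5 had 1 in each library. Members had a median of 2.5 to 4 peaks per library.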
